A study of Mus musculus with 15 samples.

Results

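The 8 genes described here were chosen by name, with no measured value in the rule: Tnfaip3, which encodes A20, its binding partners Tnip1, Tnip2 and Tnip3 (ABIN1, ABIN2 and ABIN3), the deubiquitinase gene Cyld, Tnfaip2, the ubiquitin ligase gene Peli1, and Rnf31, which encodes HOIP. The choice was made with earlier results of these data known. These genes are 8 of the 25814 in the deposited tables, and all 8 passed the filter on low counts that left 11804 genes for testing. Their mRNA was measured by RNA-seq in bone marrow-derived macrophages (BMDMs) of adult wild-type C57BL/6 mice, grown from bone marrow cells in L929-conditioned medium. There were 5 libraries of BMDMs treated with poly(I:C) at 10 μg/ml, a synthetic double-stranded RNA that activates TLR3, 5 libraries of BMDMs treated with CL075 at 4 μM, a small molecule used to activate TLR7, and 5 control libraries, labelled ctrl. Treatment lasted 6 h. The sources do not say whether the 5 libraries of a group came from different mice, so the p-values below measure the spread between libraries, which may be in part technical. Each ligand was used at a single dose and time, so a difference between poly(I:C) and CL075 cannot be told apart from a difference in how strongly each dose acted.

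Toll-like receptors pass their signal on through ubiquitin chains, which ligases build on adaptor proteins and kinases and which other proteins read as docking sites for the kinases that activate NF-κB. Pellino 1, the product of Peli1, is a ligase known to act with the RIP kinases and TRAF proteins of this signalling, and HOIP is the catalytic subunit of LUBAC, the ligase complex that makes linear chains. A20 and CYLD counter the signal by removing or remodelling chains, and the ABIN proteins bind both ubiquitin and A20. A20 is a classic negative-feedback gene: NF-κB turns it on, and loss of A20 in myeloid cells of mice causes inflammation. TLR3 signals through the adaptor TRIF, whereas TLR7 signals through MYD88. Tnfaip2 is a TNF-inducible gene that is not part of the ubiquitin system, and it is one of the 8 genes by name only.

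The promoters of Tnfaip3, Tnip1 and Tnip3, which hold matches to the NF-κB consensus motif, and of Peli1, which holds none, are printed to show this difference. Each runs 5′ to 3′ on the strand of its gene, from 250 bases before to 50 bases after the RefSeq start, with the matches in capitals. The windows lie at chr10:19015361-19015660 on the minus strand (Tnfaip3, the first of its 2 RefSeq starts), chr11:54962891-54963190 on the minus strand (Tnip1), chr6:65590148-65590447 on the plus strand (Tnip3) and chr11:21091074-21091373 on the plus strand (Peli1). Sequences and starts are those of RefSeq on GRCm38.p6.
Tnfaip3: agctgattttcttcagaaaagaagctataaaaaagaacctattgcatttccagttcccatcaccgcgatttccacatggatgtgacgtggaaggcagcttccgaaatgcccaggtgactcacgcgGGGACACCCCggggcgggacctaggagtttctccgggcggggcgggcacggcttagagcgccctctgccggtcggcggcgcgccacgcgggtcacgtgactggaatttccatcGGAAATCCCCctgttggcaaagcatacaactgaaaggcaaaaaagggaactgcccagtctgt
Tnip1: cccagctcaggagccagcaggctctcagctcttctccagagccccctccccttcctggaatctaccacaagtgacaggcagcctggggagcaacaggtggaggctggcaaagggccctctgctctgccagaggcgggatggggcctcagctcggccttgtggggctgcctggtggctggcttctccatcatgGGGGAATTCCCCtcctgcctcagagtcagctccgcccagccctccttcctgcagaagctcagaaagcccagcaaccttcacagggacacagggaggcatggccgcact
Tnip3: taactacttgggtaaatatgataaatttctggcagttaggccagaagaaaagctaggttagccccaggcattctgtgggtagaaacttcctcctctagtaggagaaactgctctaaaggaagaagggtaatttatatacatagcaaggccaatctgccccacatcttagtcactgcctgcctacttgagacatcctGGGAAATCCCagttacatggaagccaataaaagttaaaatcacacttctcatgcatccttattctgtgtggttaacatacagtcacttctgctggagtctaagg
Peli1: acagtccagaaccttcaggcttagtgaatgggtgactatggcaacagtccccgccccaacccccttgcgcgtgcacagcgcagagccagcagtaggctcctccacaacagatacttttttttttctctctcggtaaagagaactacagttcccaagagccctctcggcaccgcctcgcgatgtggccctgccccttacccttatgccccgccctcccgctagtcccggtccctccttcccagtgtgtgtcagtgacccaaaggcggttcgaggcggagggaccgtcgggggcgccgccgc

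The consensus was searched on both strands in all 32851 RefSeq mouse promoters of this length, of which 8.46% held at least 1 match. Of the 8 genes, 5 held one: Tnfaip3 (at its first start), Tnip1, Tnip3, Cyld and Tnfaip2. Tnfaip3 had 2 separate matches, GGGACACCCC at positions -125 to -116 and GGAAATCCCC at -12 to -3, counted from the base before the start as -1. In Tnip1, 3 overlapping matches formed the single run GGGGAATTCCCC at -58 to -47, and Tnip3 had GGGAAATCCC at -54 to -45. Cyld had GGAAAGTCCC at -155 to -146 and Tnfaip2 had GGAGGGCCCC at -24 to -15. The matches of Tnfaip3, Tnip3 and Tnfaip2 lay inside the gene spans given below, which reach upstream of the RefSeq starts used. No match lay in the windows of Tnip2, Peli1 and Rnf31 or at the second start of Tnfaip3. The interferon-response core GAAANNGAA, held by 8.56% of all promoters, was found only in Cyld among the 8 genes, as TTCGCTTTC at -192 to -184 on the printed strand, and the AP-1 site TGANTCA, held by 7.81%, only in Tnfaip3, as TGACTCA at -136 to -130. The searched motifs are described by sequence alone, and no factor binding was measured.

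**Figure D1:**
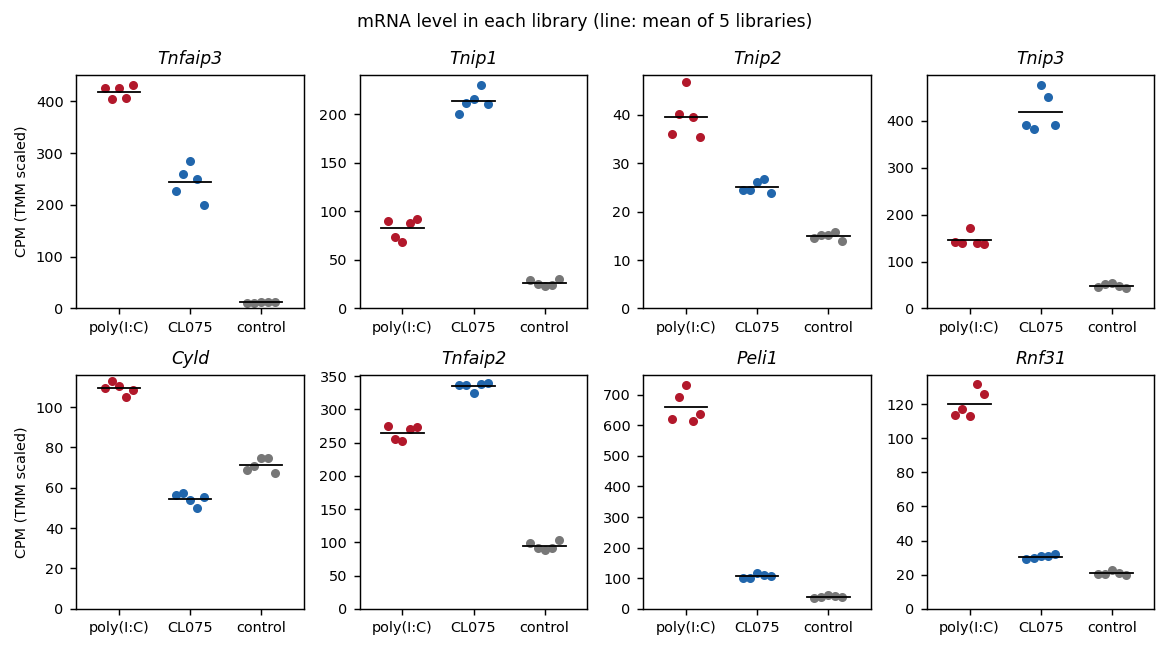
Level of each gene's mRNA in every library, in TMM-scaled CPM (vertical axis, from 0, different in each panel), for BMDMs treated with poly(I:C) or CL075 and for control BMDMs, with 1 point per library and a line at the mean of 5. Tnip1, Tnip3 and Tnfaip2 were highest with CL075, the other 5 genes with poly(I:C), and Cyld with CL075 lay below its control.

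Levels within a gene are given as CPM (each count over the library's total and scaled to a common sum) after TMM scaling, which sets the libraries to a common scale through the bulk of the genes. Calls of higher or lower rest on edgeR's quasi-likelihood test: a Benjamini-Hochberg adjusted p under 0.05 over the 11804 genes, more than 1.5-fold in size, and, in 1 or both of the groups compared, a mean TPM that exceeds 0.5. With poly(I:C), 8 of the 8 genes were called higher than in control, against 25.4% of all genes tested called higher and 30.5% called lower. With CL075, 6 were called higher, 0 lower and 2 (Cyld and Rnf31) did not pass, against 17.6% of all genes called higher and 21.5% called lower. Cyld alone was lower with CL075 (adjusted p = 4.2e-07), but by less than 1.5-fold, and DESeq2 also called 0 of the 8 lower. With Hprt (-0.67) or library totals (-0.73) as the scale, Cyld was called lower with CL075. Between the ligands, 5 were higher with poly(I:C), 2 (Tnip1 and Tnip3) were lower and 1 (Tnfaip2) did not pass, against 22.7% of all genes called higher and 23.7% lower. The median log2 fold change of the 8 genes was 1.62 for poly(I:C) against control and 1.64 for CL075 against control, where the medians of all genes were -0.08 and -0.02, and 0.72 for poly(I:C) against CL075, where it was -0.01. The libraries of the groups compared did not overlap for any of the 8 genes in any of the 3 comparisons, which was so for 75.9%, 65.2% and 66.2% of all genes in the same order. The 8 genes were chosen with earlier results of these data known, so their counts beside these shares are a description. Both ligand comparisons use the same control libraries. In such bulk samples a smaller share of expressing cells and less mRNA per cell cannot be told apart.

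Total counts ranged from 26530525 to 32487565 in the poly(I:C) libraries, from 21816291 to 32042680 in the CL075 libraries and from 25661175 to 31159953 in the control libraries. TMM factors lay between 0.683 and 0.721 with poly(I:C), between 1.03 and 1.09 with CL075 and between 1.33 and 1.38 in control. Without them, on library totals, the median gene differed by -1.02 on the log2 scale between poly(I:C) and control, by -0.37 between CL075 and control and by -0.60 between poly(I:C) and CL075, and the share of calls that were higher was 16.8%, 22.4% and 22.4% in place of 45.5%, 45.1% and 48.9%. Macrophage markers were abundant: 8 of the 9 listed were in the tables, all 8 were tested, and their summed TPM was 38875 to 42919 with poly(I:C), 50974 to 58582 with CL075 and 65086 to 71546 in control, most of it from Lyz2. Of the other lists, all markers of which were in the tables, neutrophil markers (6 of 8 tested) summed to 122 to 528 TPM with poly(I:C), 545 to 1033 with CL075 and 111 to 488 in control, chiefly S100a8 and S100a9. With poly(I:C), CL075 and in control, S100a8 averaged 93.9, 516 and 99.9 TPM, S100a9 175, 208 and 146 TPM, Ngp 38.4, 39.5 and 28.4 TPM, and Camp 2.2, 6.32 and 2.24 TPM, while Elane, Mpo, Retnlg and Ly6g stayed at or under 1.26 TPM on average in each group. The dendritic cell list summed to 6.33 to 8.79 TPM with poly(I:C), 0.367 to 0.759 with CL075 and 0.642 to 1.02 in control, most of it with poly(I:C) from Clec9a. The B cell list summed to 3.38 to 4.62 TPM with poly(I:C), 4.36 to 5.99 with CL075 and 25.4 to 29.7 in control, chiefly Cd79b. The T and NK list summed to 35.7 to 42.7, 31.3 to 38.7 and 47.7 to 59.3 TPM in the same order, nearly all of it Cd4, with Cd3e at or under 0.0489 TPM on average, and the mast cell and fibroblast lists stayed at or under 2.05 TPM in every library. The part of these lists in the values below was not tested.

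Tnfaip3 had the largest difference from control of the 8 genes with either ligand. It lies at chr10:19000910-19015657 on the minus strand (GRCm38). Its level was 426, 404, 426, 407 and 431 CPM in the poly(I:C) libraries, 228, 260.5, 284, 249 and 199.5 CPM in the CL075 libraries and 9.83, 11.5, 12.8, 11.6 and 12.1 CPM in the control libraries. Every treated library was thus far above every control library, and the lowest poly(I:C) library was above the highest CL075 library. The log2 fold change was 5.18 (SE 0.09, adjusted p = 6.8e-19) for poly(I:C) against control, 36.2-fold, and 4.40 (SE 0.09, adjusted p = 1.5e-17) for CL075 against control, 21.1-fold. Between the ligands it was 0.78 (SE 0.08, adjusted p = 2.7e-08). That last difference was under 1.5-fold when libraries were scaled by their totals (0.19) or by Hprt (0.52). The CL075 libraries spread more widely (244 ± 32.4 CPM, mean ± SD, n = 5) than the poly(I:C) libraries (419 ± 12.2 CPM, n = 5).

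Of the ABIN genes, Tnip1 and Tnip3 were highest with CL075 and Tnip2 with poly(I:C). Tnip1 (chr11:54910785-54962917, minus strand), whose product ABIN1 recruits A20 to ubiquitin chains, had 89.96, 73.7, 68.7, 88.1 and 92.2 CPM with poly(I:C), 201, 212, 216, 231 and 211 CPM with CL075 and 28.9, 25.6, 22.9, 24.6 and 30.1 CPM in control. Its CL075 libraries stood more than 2-fold above every poly(I:C) library, and these in turn stood above every control library. On the log2 scale the fold change of Tnip1 was 1.64 (SE 0.09, adjusted p = 1.7e-12) for poly(I:C) against control, 3.02 (SE 0.09, adjusted p = 1.4e-15) for CL075 against control and -1.37 (SE 0.08, adjusted p = 1.9e-11) for poly(I:C) against CL075.

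Tnip3 (chr6:65525313-65634040, plus strand) encodes ABIN3, another A20-binding protein. Its RefSeq start used for the promoter lies inside this span, which is the one in the deposited tables. The level was 142, 139, 172, 140.4 and 138 CPM with poly(I:C), 392, 384, 477, 450.2 and 392 CPM with CL075 and 46.4, 51.6, 53.5, 48.3 and 43.9 CPM in control. The order of the groups was that of Tnip1, with replicate 3 of poly(I:C) apart from the other 4 libraries of its group. Tnip3 thus had a log2 fold change of 1.59 (SE 0.08, adjusted p = 6.8e-13) for poly(I:C) against control, 3.10 (SE 0.08, adjusted p = 3.4e-16) for CL075 against control and -1.52 (SE 0.08, adjusted p = 1.4e-12) for poly(I:C) against CL075.

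Tnip2 (chr5:34496087-34513991, minus strand), whose product ABIN2 is also known to bind the kinase TPL2, was the least abundant of these genes in CPM in the poly(I:C) and CL075 libraries. It had 36.1, 40.2, 46.7, 39.6 and 35.5 CPM with poly(I:C), 24.5, 24.6, 26.1, 26.7 and 23.8 CPM with CL075 and 14.5, 15.2, 15.2, 15.8 and 13.9 CPM in control. The 3 groups formed 3 steps with no overlap, in a narrower range than the other ABIN genes. For Tnip2 this gave a log2 fold change of 1.41 (SE 0.07, adjusted p = 4.5e-13) for poly(I:C) against control and 0.75 (SE 0.07, adjusted p = 9.5e-09) for CL075 against control. Between the ligands it was 0.66 (SE 0.07, adjusted p = 3.7e-08), close to the 1.5-fold threshold: it fell below it without poly(I:C) replicate 3 (0.57) and with upper-quartile factors (0.49), Hprt (0.39) or library totals (0.07) as the scale, and it missed a test against 1.5-fold itself (glmTreat, adjusted p = 0.12). The calls against control were also lost on library totals (0.47 for poly(I:C) and 0.40 for CL075), and that for CL075 with Hprt (0.46).

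Cyld was the only one of the 8 genes whose level with CL075 lay below control. CYLD, the product of this tumour suppressor gene, removes linear and lysine-linked chains. The gene lies at chr8:88697028-88751945 on the plus strand. It had 109, 113, 110.4, 105 and 109 CPM with poly(I:C), 56.4, 57.3, 53.9, 49.9 and 55.6 CPM with CL075 and 68.8, 70.6, 74.9, 74.7 and 67.1 CPM in control. All CL075 libraries were below all control libraries and all poly(I:C) libraries above them. The log2 fold change between the ligands was 1.0 (SE 0.05, adjusted p = 3.1e-13), and that for poly(I:C) against control was 0.62 (SE 0.05, adjusted p = 2.7e-10), 1.53-fold. For CL075 against control it was -0.38 (SE 0.05, adjusted p = 4.2e-07), under the 1.5-fold threshold, so it was not called. The direction with poly(I:C) depended on the scale: it was 0.07 (adjusted p = 0.34) with Hprt as the scale, 0.295 with upper-quartile factors and -0.32 on library totals, where the median gene was at -1.02, and it missed the glmTreat test (adjusted p = 0.17). Its call between the ligands was lost on library totals (0.41). With Hprt or library totals as the scale Cyld passed as lower with CL075 (-0.67 with Hprt and -0.73 on library totals).

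The ligase genes Peli1 and Rnf31 had the largest differences between the ligands on the TMM scale. With Hprt as the scale, Tnip3 (-1.78) exceeded Rnf31 (1.72) in size. On library totals Tnip3 (-2.1) exceeded Peli1 (2.03), and Tnip1 (-1.96) exceeded Rnf31 (1.39). Peli1 (chr11:21091291-21150323, plus strand) had 620.5, 692, 730.5, 614 and 638 CPM with poly(I:C), 102, 99.5, 118, 111 and 108 CPM with CL075 and 34.8, 38.9, 43.8, 41.9 and 37 CPM in control. Every CL075 library exceeded every control library, and every poly(I:C) library was above 5 times the highest CL075 library. In log2 terms the fold change of Peli1 was 4.07 (SE 0.08, adjusted p = 9.1e-19) for poly(I:C) against control, 16.8-fold, 1.46 (SE 0.07, adjusted p = 1.3e-12) for CL075 against control and 2.61 (SE 0.07, adjusted p = 1.7e-16) for poly(I:C) against CL075.

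Rnf31 (chr14:55591708-55603693, plus strand) had 114, 117, 113, 132 and 126 CPM with poly(I:C), 29.3, 29.8, 31.2, 31 and 31.9 CPM with CL075 and 20.6, 20.1, 22.6, 21 and 19.8 CPM in control. The poly(I:C) libraries stood alone at the top, and the CL075 libraries lay just above the control libraries without overlap. The log2 fold change was 2.53 (SE 0.05, adjusted p = 3.6e-18) for poly(I:C) against control and 1.97 (SE 0.05, adjusted p = 1.1e-16) for poly(I:C) against CL075. For CL075 against control it was 0.56 (SE 0.05, adjusted p = 1.8e-08), 1.47-fold and not called, although it passed without control replicate 3 (0.59) and with DESeq2 (0.60). The last 123 exon bases of Rnf31, or 2.15% of its exon bases, are shared with the neighbouring interferon-signalling gene Irf9 on the same strand, and reads there cannot be told apart. Irf9, named for this overlap, had 183 ± 6.06 CPM with poly(I:C), 97.3 ± 3.59 CPM with CL075 and 79.6 ± 6.42 CPM in control (mean ± SD, n = 5 each), a log2 fold change of 1.20 (SE 0.05, adjusted p = 8.6e-14) for poly(I:C) against control.

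Tnfaip2 (chr12:111442469-111455018, plus strand), which encodes a protein related to the exocyst and linked to membrane nanotubes in macrophages, differed least between the ligands on the TMM scale. It had 274, 256, 252, 270.3 and 273 CPM with poly(I:C), 337, 336, 324, 338 and 339 CPM with CL075 and 99, 92, 88.6, 91.6 and 104 CPM in control. All treated libraries were above all control libraries, and the CL075 libraries were the highest. The log2 fold change was 1.48 (SE 0.05, adjusted p = 1.0e-15) for poly(I:C) against control and 1.82 (SE 0.05, adjusted p = 3.3e-16) for CL075 against control. Between the ligands it was -0.34 (SE 0.05, adjusted p = 2.1e-06), under 1.5-fold and not called, but it was called lower with poly(I:C) with Hprt (-0.60) or library totals (-0.92) as the scale. On library totals the call for poly(I:C) against control was lost (0.54). Tnip2 differed less between the ligands than Tnfaip2 with upper-quartile factors (0.49 against -0.51), Hprt (0.39 against -0.60) and library totals (0.07 against -0.92). An antisense gene, Gm40578, shares 314 exon bases with Tnfaip2, 6.3% of the exon bases of Tnfaip2. The kit keeps strand, but whether the counting used it is not stated, so reads of the pair cannot be told apart.

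**Figure D2:**
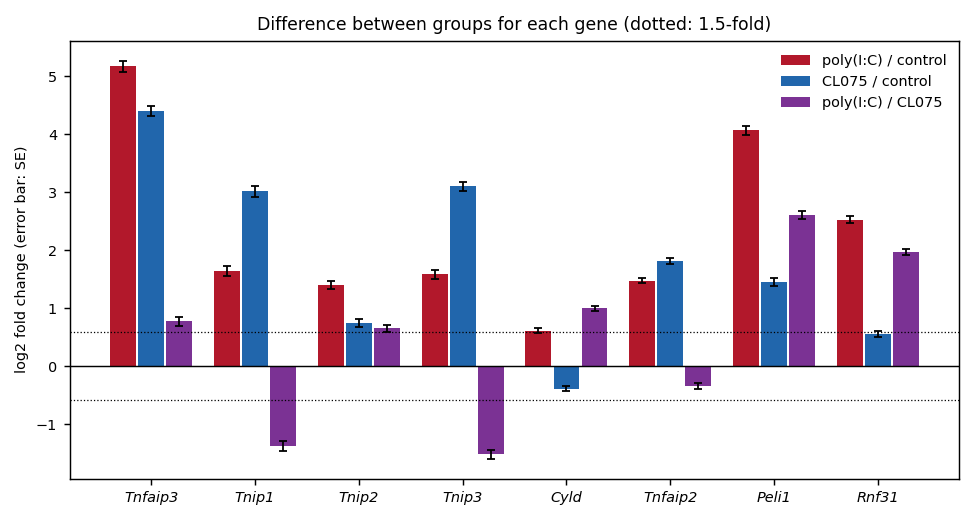
Log2 fold change of each gene (vertical axis) for poly(I:C) over control, CL075 over control and poly(I:C) over CL075, from edgeR with 5 libraries per group, with error bars of 1 SE and dotted lines at 1.5-fold. Tnfaip3 had the tallest bars against control (5.18 and 4.40), Peli1 and Rnf31 the largest positive differences between the ligands (2.61 and 1.97), and Tnip1 and Tnip3 the only ones below the lower dotted line (-1.37 and -1.52).

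Across genes, levels were compared in TPM, which divides by gene length and sums to the same total in each library. The order of genes thus depends on the length used for each, not on the transcripts expressed. In poly(I:C) libraries the order was Peli1 (287 ± 17.6 TPM, mean ± SD, n = 5), Tnfaip3 (153 ± 6.29), Tnfaip2 (122 ± 6.97), Tnip3 (64.6 ± 6.15), Rnf31 (61.6 ± 5.05), Tnip1 (46 ± 6.68), Tnip2 (34.4 ± 3.61) and Cyld (23.8 ± 0.257). The ranges over libraries overlapped between the neighbours Tnip3 and Rnf31 and between Tnip1 and Tnip2. In CL075 libraries the order was Tnip3 (262 ± 21.9 TPM), Tnfaip2 (219 ± 9.33), Tnip1 (169 ± 4.52), Tnfaip3 (126 ± 14.6), Peli1 (66.7 ± 4.37), Tnip2 (31 ± 0.74), Rnf31 (22.3 ± 1.11) and Cyld (17 ± 1.39), with no overlap between neighbours. In control libraries Tnfaip2 led (78.9 ± 6.05 TPM), then Tnip3 (38.8 ± 2.78), Peli1 (30.9 ± 2.69), Cyld (28 ± 1.17), Tnip1 (26.6 ± 3.3), Tnip2 (23.4 ± 0.858), Rnf31 (19.2 ± 0.981) and last Tnfaip3 (7.61 ± 0.74). There the run of neighbours Peli1, Cyld, Tnip1 and Tnip2 overlapped pair by pair. Tnfaip3 was thus the lowest of the 8 genes in control and the second highest with poly(I:C).

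The ratio of 2 mRNAs within a library does not depend on how the libraries are scaled. The pairs given here were chosen after their values were seen, so the ratios are a description with no test. Tnip1 to Tnfaip3 was 0.301 ± 0.0371 with poly(I:C), 1.35 ± 0.174 with CL075 and 3.53 ± 0.652 in control (TPM ratio, mean ± SD, n = 5 each), with no overlap between groups. Tnip3 to Tnfaip3 was 0.423 ± 0.0391 with poly(I:C), 2.09 ± 0.217 with CL075 and 5.13 ± 0.497 in control. In TPM, A20 mRNA was thus the minority of each pair in control and the majority with poly(I:C). Tnip3 and Tnip1 kept a like proportion to each other: their ratio was 1.44 ± 0.33 with poly(I:C), 1.55 ± 0.122 with CL075 and 1.49 ± 0.275 in control, and the 3 ranges overlapped. Cyld to Tnfaip3 was 0.156 ± 0.00628 with poly(I:C), 0.136 ± 0.0218 with CL075 and 3.71 ± 0.335 in control, so the ligands had ratios that overlapped while control stood apart.

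The genes that make and cut linear chains did not move as 1 group. LUBAC consists of HOIP, HOIL-1 (Rbck1) and SHARPIN, and OTULIN cuts linear chains. Rnf31 to Rbck1 was 3.06 ± 0.226 with poly(I:C), 1.17 ± 0.0893 with CL075 and 0.785 ± 0.104 in control (TPM ratio, n = 5 each), and Rnf31 to Sharpin was 2.21 ± 0.145, 0.717 ± 0.0458 and 0.416 ± 0.0288 in the same order. Otulin averaged 19.1 ± 0.828 CPM with poly(I:C), 58 ± 3.81 CPM with CL075 and 36.1 ± 1.1 CPM in control. It fell with poly(I:C) (log2 fold change -0.92, SE 0.05, adjusted p = 4.5e-12) and rose with CL075 (0.69, SE 0.05, adjusted p = 2.8e-10), a call lost with upper-quartile factors (0.53), Hprt (0.40) or library totals (0.335) as the scale. The Rnf31 to Otulin ratio was 3.07 ± 0.285 with poly(I:C), 0.257 ± 0.0158 with CL075 and 0.281 ± 0.0166 in control. Sharpin passed in none of the 3 comparisons (0.13, -0.23 and 0.36 for poly(I:C) against control, CL075 against control and poly(I:C) against CL075), and its value for poly(I:C) against control was negative with upper-quartile factors, Hprt or library totals as the scale (-0.19, -0.41 and -0.81). Rbck1, named after its values were seen, differed by 0.56 with poly(I:C), negative on library totals (-0.38), and by 0.59 (SE 0.09, adjusted p = 7.9e-06) between the ligands, just past 1.5-fold. Both turned on the settings. The first passed with DESeq2 (0.626), with 2 groups in the fit (0.592), and without ctrl replicate 5 (0.625) or poly(I:C) replicate 2 (0.601), and was 0.016 with Hprt as the scale. The second did not pass without CL075 replicate 2 (0.541), poly(I:C) replicate 4 (0.525) or poly(I:C) replicate 5 (0.555), with no filter (0.569), upper-quartile factors (0.426), Hprt (0.341) or library totals (0.0091), or in the glmTreat test (adjusted p = 0.44). Of the list of 7 genes of linear chains, poly(I:C) against control gave 2 calls up (Cyld and Rnf31) and 1 down, where 25.4% and 30.5% of all genes were called up and down, and CL075 against control gave 1 up and 1 down, where these shares were 17.6% and 21.5%. Without Cyld and Rnf31, the other 5 genes gave only the call of Otulin with poly(I:C), and 1 up and 1 down with CL075.

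**Figure D3:**
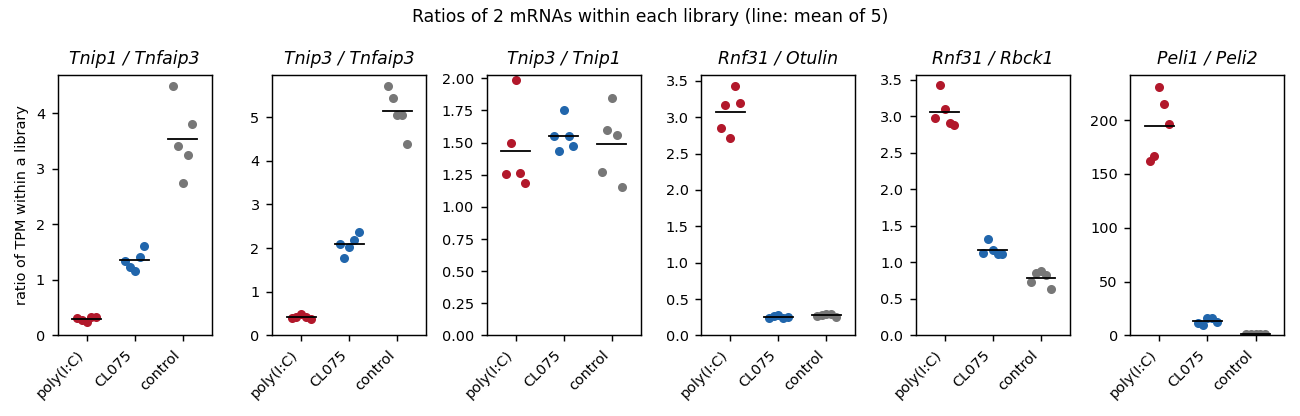
Ratio of the TPM of 2 mRNAs in the same library (vertical axis, from 0, different in each panel) for BMDMs treated with poly(I:C) or CL075 and for control BMDMs, with 1 point per library and a line at the mean of 5. The ratios of Tnip1 and Tnip3 to Tnfaip3 were lowest with poly(I:C) and highest in control, and Tnip2 to Tnfaip3 was not drawn. Tnip3 to Tnip1 overlapped in all 3 groups (means 1.44, 1.55 and 1.49), and the Rnf31 and Peli1 ratios were highest with poly(I:C).

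Of the 7 genes of A20 and its partners, 5 were called higher with poly(I:C) and 6 with CL075, where 25.4% and 17.6% of all genes were. Tnfaip3 and the ABIN genes make up 4 of the 7, and of the other 3 genes 1 was called higher with poly(I:C) and 2 with CL075. Besides Tnfaip3 and the ABIN genes, the list holds Tax1bp1, an adaptor that links A20 to its substrates and also serves in autophagy. Tax1bp1 averaged 837 ± 65.8 CPM with poly(I:C), 296 ± 18.6 CPM with CL075 and 172 ± 11.2 CPM in control, a log2 fold change of 2.28 (SE 0.07, adjusted p = 2.3e-16) with poly(I:C), 0.78 (SE 0.06, adjusted p = 2.3e-09) with CL075 and 1.499 (SE 0.06, adjusted p = 1.1e-13) between the ligands. Its CL075 call was lost with Hprt (0.491) or library totals (0.43) as the scale. Of Itch and Rnf11, which encode proteins that act with A20, Itch passed with neither ligand and Rnf11 passed with CL075 (0.60) but not with poly(I:C) (0.46). Rnf11 was not called between the ligands (-0.14).

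Among the 12 ligases and E2 enzymes, poly(I:C) against control gave 9 calls up and 2 down, CL075 against control gave 6 up and 1 down, and poly(I:C) against CL075 gave 3 up and 2 down. Of all genes tested, 25.4%, 17.6% and 22.7% were called up in these comparisons, and 30.5%, 21.5% and 23.7% down. The 2 of the 12 that were lower with poly(I:C) were the paralogs of Peli1, named after their values were seen. Peli2 averaged 5.92 ± 0.906 CPM with poly(I:C), 14.4 ± 2.25 CPM with CL075 and 43.2 ± 2.51 CPM in control. Its log2 fold change was -2.87 (SE 0.11, adjusted p = 7.7e-15) with poly(I:C) and -1.58 (SE 0.09, adjusted p = 2.0e-11) with CL075. Peli1 to Peli2 was 194 ± 30.0 with poly(I:C), 13.1 ± 2.76 with CL075 and 1.56 ± 0.131 in control (TPM ratio, n = 5 each). Peli3 was low throughout, with 2 to 6 counts per library with poly(I:C), and stood at 0.204 ± 0.0916 CPM with poly(I:C), 2.25 ± 0.347 CPM with CL075 and 1.68 ± 0.429 CPM in control, and it fell with poly(I:C) (-3.05, SE 0.28, adjusted p = 9.0e-09) while its CL075 value did not pass (0.42). The E2 enzyme gene Ube2d3 rose with both ligands (1.57 with poly(I:C) and 0.999 with CL075). Ube2l3, which encodes the E2 enzyme used by LUBAC, passed with poly(I:C) (0.86, but 0.54 with upper-quartile factors, 0.31 with Hprt and -0.07 on library totals, none of which passed) and not with CL075 (0.35). Ube2l3 was not called between the ligands (0.51).

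The 10 chain readers and kinases gave 4 calls up and 1 down in poly(I:C) against control, and 2 up and 1 down in CL075 against control. Of all genes tested, 25.4% and 17.6% were called up in these comparisons, and 30.5% and 21.5% down. Ikbke, an interferon-linked kinase gene, rose with both ligands (2.52 with poly(I:C) and 2.70 with CL075), and its libraries overlapped between them (-0.17, not called, but called at -0.76 on library totals). Tbk1, the gene of its partner kinase, rose with poly(I:C) (1.46) and had 0.47 with CL075, not called, with a difference between the ligands of 0.98 (SE 0.04, adjusted p = 2.2e-13). On library totals Tbk1 passed neither with poly(I:C) (0.518) nor between the ligands (0.397). Tab2, which encodes a reader of lysine-linked chains in the TAK1 complex, had 1.25 with poly(I:C), which passed except on library totals (0.31), and 0.56 with CL075, which did not pass except with DESeq2 (0.601). The 11 other deubiquitinases gave 4 calls up and 1 down in poly(I:C) against control, where 25.4% and 30.5% of all genes were called up and down. They gave 5 up and 2 down in CL075 against control, where these shares were 17.6% and 21.5%. Usp18, the interferon-induced protease that removes ISG15, averaged 2006 ± 54.6 CPM with poly(I:C), 318 ± 42.8 CPM with CL075 and 58.8 ± 15.9 CPM in control, and differed by 5.09 (SE 0.16, adjusted p = 1.1e-15) and 2.44 (SE 0.15, adjusted p = 3.4e-11) on the log2 scale from control. Usp25 rose with both (2.57 with poly(I:C) and 1.08 with CL075), as did Otud5 (1.38 and 0.67), although its CL075 call was lost with upper-quartile factors (0.521), Hprt (0.387) or library totals (0.325) and its poly(I:C) call on library totals (0.447). Usp10, named after its values were seen, fell with poly(I:C) (-1.85, SE 0.10, adjusted p = 5.4e-12) and rose with CL075 (1.04, SE 0.08, adjusted p = 9.5e-10). Over the 40 genes of these lists other than the genes described above, poly(I:C) against control gave 17 calls up and 5 down (median log2 fold change 0.46), CL075 against control 15 up and 5 down (0.39), and poly(I:C) against CL075 10 up and 4 down (0.24). The shares of all genes called up were 25.4%, 17.6% and 22.7% in the same order, and those called down 30.5%, 21.5% and 23.7%. The lists, too, were chosen with earlier results of these data known, so their counts beside these shares are a description.

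**Figure D4:**
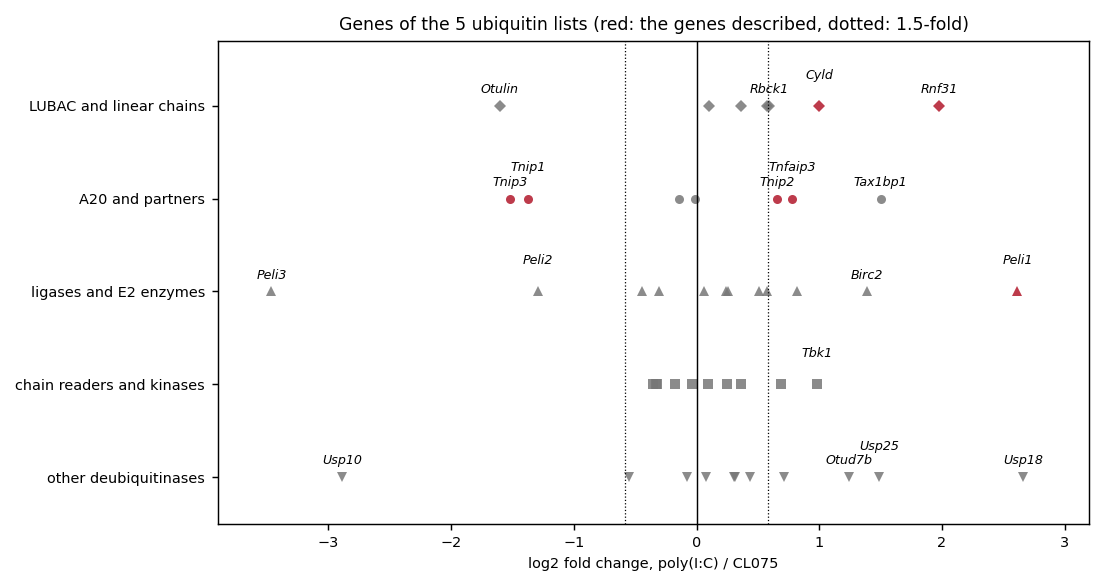
Log2 fold change of poly(I:C) over CL075 (horizontal axis) for the genes of 5 lists of the ubiquitin system, 1 row per list and 1 point per gene, red for the 7 of the 8 genes that the lists hold and grey for the others, with dotted lines at 1.5-fold. Peli1 (2.61) and Usp18 (2.66) lay farthest to the right, and Peli3 (-3.46) and Usp10 (-2.89) farthest to the left.

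For each of the 8 genes, the genes with the most similar pattern were sought by Pearson's r of log2 CPM over the 15 libraries, among 7368 genes with a mean of at least 10 CPM. The libraries fall into 3 groups, so r here mostly measures how alike the 3 group means are, and it carries no p. Tnfaip3 was closest to Rapgef2 (r = 0.9992), Nfkb1 (0.9979), which encodes an NF-κB subunit, and Traf1 (0.9978). Tnip1 was closest to Spi1 (0.9966), Cdc42ep2 (0.9935) and Tbc1d10b (0.9934), and Tnip3 to Pik3r5 (0.9963), Zfp811 (0.996) and Cdc42ep2 (0.9956), so the last gene stood in both sets. Tnfaip2 was closest to Nfkbia (0.9964), which encodes the NF-κB inhibitor IκBα, Cd38 (0.9956) and Relb (0.9947), which encodes another NF-κB subunit. Peli1 was closest to Rin2 (0.9991), Zfp800 (0.9991) and Ikzf1 (0.9988), and Rnf31 to Cep85l (0.9988), Slc25a12 (0.9988) and Mafk (0.9984). Tnip2 was closest to Tpm3 (0.9947), Gna13 (0.9931) and Sbds (0.9928), and Cyld to Man2a1 (0.9961), Casp2 (0.9959) and Itga4 (0.9954). Among the 8 genes themselves, the closest pairs were Peli1 with Rnf31 (r = 0.986) and Tnip1 with Tnip3 (0.984), and the most unlike was Cyld with Tnip3 (-0.363).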

How the data were processed

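Total RNA of BMDMs was sequenced as 15 stranded mRNA libraries (5 poly(I:C), 5 CL075, 5 ctrl). The authors trimmed the reads, used CLC Genomics Workbench to map them to GRCm38.p6 and its Ensembl genes, and deposited whole-number counts per gene, with no normalization, and TPM values, which the authors scaled by gene length and library total. The submitters' processing notes also list bcl2fastq, HISAT2, featureCounts and edgeR. Whether counting used strand is not stated. The 5 control libraries stand in both deposited tables with identical counts and were used once. The deposited comparison tables (fold changes and p-values of the authors) and 20 columns of RPKM were not used.

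Counts of all 15 libraries entered 1 edgeR 4.0.16 fit (R 4.3.3), with filterByExpr, TMM factors, a mean per group and the quasi-likelihood test, after a test on simulated data. P-values were adjusted by Benjamini-Hochberg over 11804 genes. Levels are TMM-scaled CPM within a gene and deposited TPM between genes. With 26530525 to 32487565, 21816291 to 32042680 and 25661175 to 31159953 counts per poly(I:C), CL075 and control library, the lowest count of a member was 343, in a control library for Tnfaip3, and replicates differed beyond sampling noise. Genes were named by rule: the 8 members, from each of 5 pathway lists the 3 genes of highest mean TPM and the one of the largest called fold, and the 3 genes most like each member. Those named after their values were seen are marked so. The members and lists were chosen with earlier results of these data known. Alternatives were DESeq2 1.42.0, upper-quartile factors, library totals or Hprt as the scale, no filter, a replicate block, only 2 groups in the fit, glmTreat, no TPM floor, leaving out each library, and a promoter window of the 250 bases before the start. Positions are those of the deposited tables, equal to GENCODE vM21. No protein sequences were used here.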

Additional observations from a re-analysis of the deposited data

Results flagged for a closer look

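In 75 groups of 5 libraries (25 named genes in 3 groups), 2 had a library far from the other 4 by Dixon's test at a critical value of 0.71, and chance alone flags about 1 in 20 groups. Tnip3 was at 172.2 CPM in poly(I:C) replicate 3, where the other 4 poly(I:C) libraries lay between 137.5 and 142.4 CPM (gap over range 0.859). Without this library the log2 fold change of Tnip3 stayed called in the same direction for poly(I:C) against control and against CL075. Tnfaip2 was at 324.3 CPM in CL075 replicate 3, where the other 4 CL075 libraries lay between 336.5 and 339.3 CPM (gap over range 0.813), a gap that is small beside the distance to the poly(I:C) libraries, the highest of which was at 274.2 CPM.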

How the results depend on the processing

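Each log2 fold change of the 8 genes was recomputed under every alternative. No filter, a replicate block, 2 groups in the fit and no TPM floor changed none of their 24 calls, and each other alternative kept all but those named in the report. Leaving out 1 library changed 2 calls, Tnip2 between the ligands without poly(I:C) replicate 3 and Rnf31 with CL075 without control replicate 3. The scale mattered most. On library totals, poly(I:C) against control gave 5 of the 8 genes up and 0 down (all genes: 1546 up, 7664 down). CL075 against control gave 5 of the 8 up and 1 down (all genes: 1208 up, 4184 down). Poly(I:C) against CL075 gave 2 up and 3 down (all genes: 1629 up, 5631 down), where TMM gave 5 up and 2 down. With Hprt as the scale, poly(I:C) against control gave 7 of the 8 up and 0 down (all genes: 2026 up, 5920 down). CL075 against control then gave 5 up and 1 down (all genes: 1314 up, 3814 down). Poly(I:C) against CL075 then gave 3 up and 3 down (all genes: 2089 up, 3877 down). The share of calls that were higher was 32.3%, 33.5% and 39.7% with upper-quartile factors, and 25.5%, 25.6% and 35.0% with Hprt, for poly(I:C) against control, CL075 against control and poly(I:C) against CL075. Hprt itself differed by 0.55 with poly(I:C) and 0.29 with CL075 on TMM.

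Signs that changed with library totals as the scale were those of Cyld (-0.32), Hprt (-0.38), Rbck1 (-0.38), Sharpin (-0.81) and Ube2l3 (-0.075) for poly(I:C) against control, Irf9 (-0.059) and Hprt (-0.064) for CL075 against control, and Hprt (-0.32), Sharpin (-0.22), Ube2d3 (-0.016) and Ube2l3 (-0.078) for poly(I:C) against CL075. Sharpin with poly(I:C) was -0.19 with upper-quartile factors and -0.41 with Hprt. Rbck1 with CL075, near 0 throughout, was 0.0078 with DESeq2 and -0.078 to 0.031 with 1 library left out. Library totals also ended called differences of Otud5, Otulin, Rbck1, Tab2, Tax1bp1, Tbk1 and Irf9, Hprt those of Otud5, Otulin, Rbck1, Tab2, Tax1bp1 and Ube2l3, and upper-quartile factors those of Otud5, Otulin, Rbck1, Tab2 and Ube2l3. The cause of these changes was not tested.

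Deviations of same-numbered libraries from their group means correlated at 0.118 to 0.286 between poly(I:C) and CL075, at 0.105 to 0.324 between CL075 and control, and at -0.004 to 0.305 between poly(I:C) and control. Their median was 0.224 over 15 pairs, against -0.0468 (-0.232 to 0.221) over 60 pairs with different numbers. The read file names share each number across the groups but do not say whether it is a mouse. The main fit did not use the numbers as pairs. With the replicate as a block, poly(I:C) against control gave 3011 genes up and 3616 down, CL075 against control 2093 and 2558, and poly(I:C) against CL075 2690 and 2812.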

Other observations

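Some genes of the lists that the naming rule left out also differed from control, between the ligands or both. Those given here were chosen after their values were seen. Birc2, the gene of the ligase cIAP1, had a log2 fold change of 1.17 with poly(I:C) against control and -0.22 with CL075 against control, and was called up in poly(I:C) against CL075 (1.39). Its paralog Birc3, which encodes cIAP2, rose with both ligands (1.75 with poly(I:C) and 2.06 with CL075) and was not called between them (-0.31). Traf2, whose product recruits both ligases, rose with both (1.90 with poly(I:C) and 1.09 with CL075). Otud7b, the gene of the deubiquitinase Cezanne, had 0.43 with poly(I:C), not called, and fell with CL075 (-0.81), and was called between the ligands (1.24). Tab1, of the TAK1 complex, fell with both (-1.09 with poly(I:C) and -0.74 with CL075), and Spata2l, a relative of the CYLD partner gene Spata2, fell with CL075 (-1.11) and was not called with poly(I:C) (-0.53). Neither Tab1 (-0.35) nor Spata2l (0.577) was called between the ligands.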
